A study of Homo sapiens with 6 samples.

Results

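Sialyltransferases are Golgi enzymes that cap the sugar chains of glycoproteins and glycolipids with sialic acid. Expression of 10 of their genes was examined in MCF-10A cells that express ectopic CRB3: ST6GALNAC1 to ST6GALNAC6, ST6GAL1, ST3GAL1, ST3GAL4 and ST3GAL5. They are 10 of the 19775 genes that the arrays measured, and were read in 20 of the 54613 probe sets (a probe set is a group of short probes that reports 1 log2 value per array). The members are every probe set whose platform annotation gives 1 of these gene symbols, and no probe set listed a member together with another symbol. ST6GALNAC5 was chosen by its rise in the same comparison that is described here, so its values are given as a description with no test. The other 9 are further genes of the same enzyme families, listed with results of these arrays already known.

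MCF-10A is a spontaneously immortalized line of human breast epithelium that is not transformed. Both groups were infected with a retrovirus and selected with puromycin. The CRB3-expressing cells carried pNG-Crb3, which encodes human CRB3 with a myc tag at its amino terminus, and the vector control cells carried the empty pNG vector. RNA came from proliferating monolayers in growth medium at 70% confluence, with 3 arrays per group. CRB3 itself, a polarity protein of the apical membrane, read 12.11 ± 0.10 (SD, n = 3) on the log2 scale with pNG-Crb3 and 7.78 ± 0.17 (SD, n = 3) with the empty vector. Whether the replicates stem from separate infections is not given in the sources used here, and the p-values speak of the spread among these 6 arrays, which may be technical.

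Each enzyme takes sialic acid from the activated donor CMP-sialic acid and places it on its own set of acceptors. The ST6GALNAC enzymes add it to N-acetylgalactosamine, ST6GAL1 and the ST3GAL enzymes add it to galactose, and the ST8SIA enzymes extend a sialic acid that is already there. ST6GALNAC5 makes alpha-series gangliosides (sialic acid-bearing glycolipids such as GD1alpha), is known mainly from the brain, and has been linked to the passage of breast cancer cells into that tissue. ST3GAL5 is the GM3 synthase, which makes the first ganglioside of the pathway, and ST6GAL1 caps the N-glycans of many surface receptors.

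The promoters of the members whose levels differed are shown first, because they are the sequences next to the genes that the results turn on. ST6GALNAC3, which lies next to ST6GALNAC5 on chromosome 1 with 0 protein-coding genes starting between them, is shown beside it. Each line holds the 250 bases before the first start that RefSeq lists (build GRCh38.p14), read 5′ to 3′ on the strand of the gene. Capitals mark the motifs that were found, in either orientation: the GC box (GGGCGGG) and the CCAAT box (CCAAT). The windows are chr1:76867230-76867479, plus strand, for ST6GALNAC5; chr1:76074496-76074745, plus strand, for ST6GALNAC3; chr3:186930276-186930525, plus strand, for ST6GAL1; and chr2:85888991-85889240, minus strand, for ST3GAL5, which has 5 listed starts.
ST6GALNAC5: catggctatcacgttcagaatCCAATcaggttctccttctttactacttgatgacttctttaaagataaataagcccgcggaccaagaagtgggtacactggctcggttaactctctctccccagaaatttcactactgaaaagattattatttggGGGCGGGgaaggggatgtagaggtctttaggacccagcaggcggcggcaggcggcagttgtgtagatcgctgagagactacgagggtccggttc
ST6GALNAC3: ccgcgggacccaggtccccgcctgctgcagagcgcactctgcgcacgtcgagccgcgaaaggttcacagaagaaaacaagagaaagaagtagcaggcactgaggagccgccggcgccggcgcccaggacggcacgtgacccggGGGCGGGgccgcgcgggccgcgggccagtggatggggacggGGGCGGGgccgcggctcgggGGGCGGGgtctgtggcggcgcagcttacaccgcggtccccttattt
ST6GAL1: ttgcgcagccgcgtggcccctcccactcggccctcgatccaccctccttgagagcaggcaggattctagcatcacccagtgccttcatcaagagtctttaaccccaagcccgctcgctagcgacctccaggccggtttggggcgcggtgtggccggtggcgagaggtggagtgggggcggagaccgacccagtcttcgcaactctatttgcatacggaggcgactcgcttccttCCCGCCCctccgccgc
ST3GAL5: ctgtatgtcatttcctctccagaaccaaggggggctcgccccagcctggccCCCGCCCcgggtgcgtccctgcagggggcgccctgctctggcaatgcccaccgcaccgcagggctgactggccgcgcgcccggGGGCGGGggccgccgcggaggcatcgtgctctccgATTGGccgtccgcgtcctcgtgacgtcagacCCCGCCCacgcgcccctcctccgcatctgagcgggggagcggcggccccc

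The ST6GALNAC5 window had a GC content of 49.6%, and 31.9% of the 27303 promoters of the table were lower. The ST6GALNAC3 window had 73.2% and the ST3GAL5 window 76.0%, while ST6GAL1 was at 65.6%. The GC box was found 1 time before ST6GALNAC5 and ST6GAL1 and 3 times before ST6GALNAC3 and ST3GAL5, and 31.4% of all promoters hold it. The CCAAT box was found 1 time before ST6GALNAC5 and ST3GAL5, and 33.0% of all promoters hold it. The TATA box (TATAAA, in 11.1% of promoters) and the AP-1 site (TGANTCA, 6.6%) were searched on both strands. So were the CACCTG form of the E-box (17.5%) and the Grainyhead-like site (AACCNGTT, 1.48%). None of them was found in the 7 members whose promoters were searched. ST3GAL1 was left out of the search, and other forms of the E-box were not searched. All of the above are matches of letters in a fixed window, and no binding was measured.

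ST6GALNAC5 (Entrez 81849) had an 8.09-fold higher value in CRB3-expressing cells in its brightest probe set. The CRB3-expressing arrays read 7.40, 7.18 and 7.21 on the log2 scale, and the vector control arrays read 4.30, 4.36 and 4.08. The groups were far apart, with a mean of 7.26 ± 0.12 (SD, n = 3) against 4.25 ± 0.15 (SD, n = 3) and a log2 difference (CRB3-expressing minus vector control) of 3.02 (SE 0.093). In a second probe set the values were 6.32, 6.15 and 5.86 against 4.57, 4.78 and 4.83, a log2 difference of 1.38 (SE 0.12). Here too the groups did not overlap. The remaining probe set read 5.54, 5.46 and 5.53 against 5.37, 5.58 and 5.35, with groups that overlapped and a log2 difference of 0.080 (SE 0.077). The brightest probe set is of a kind (suffix _s_at) that can bind several transcripts, and the other 2 are not. The 3 probe sets of this gene gave different sizes of change, and their mean over the gene had a log2 difference of 1.49. The deposited values carry no detection calls, so the vector control values of ST6GALNAC5 are not shown to be above background. Nor are the values of its 2 dimmer probe sets in either group. For orientation, MCF-10A is known to have lost CDKN2A and CDKN2B, and their 5 probe sets had group means from 3.28 to 6.96.

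**Figure D1:**
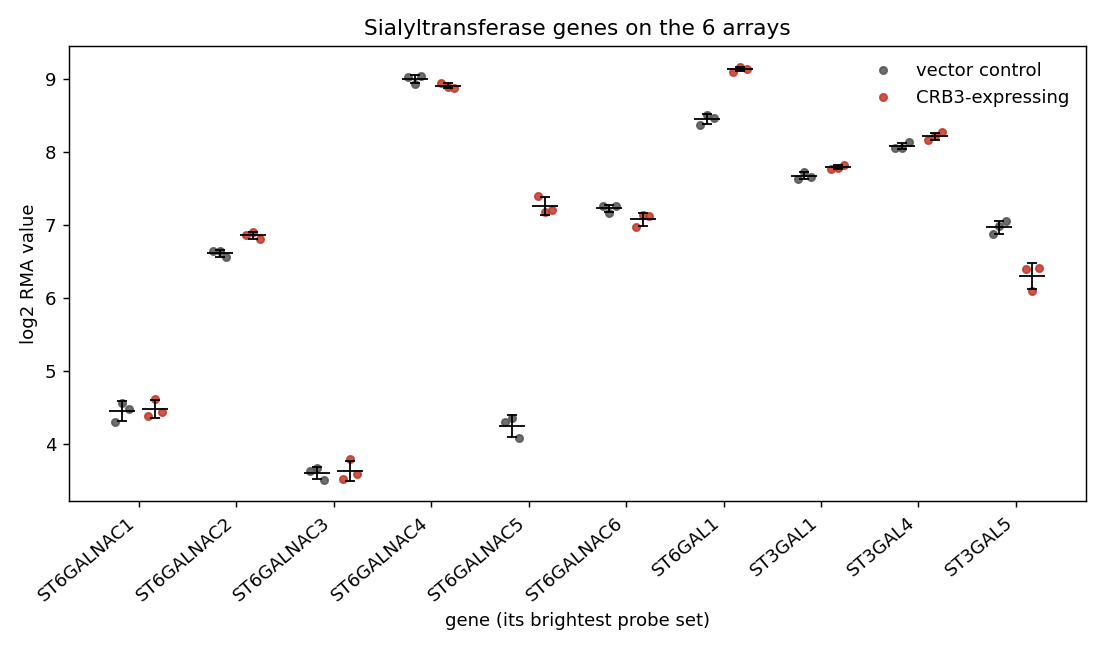
Log2 RMA value (y axis) of the brightest probe set of each sialyltransferase gene (x axis) on the 3 vector control arrays (grey points) and the 3 CRB3-expressing arrays (red points); black bars are the mean and SD. ST6GALNAC5 goes from 4.25 to 7.26, ST6GAL1 lies higher and ST3GAL5 lower in CRB3-expressing cells, and the other genes shift by less.

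Among the other 9 members, 1 was called higher and 1 lower, and 7 were not called. A gene was called at the thresholds of the methods, an adjusted p under 0.05 by limma over all probe sets and a fold change above 1.5, in its brightest probe set. Over all genes the same rule called 1.43% higher and 0.465% lower. The groups did not overlap in the brightest probe set of 7 of the 10 members (5 higher and 2 lower, ST6GALNAC5 included), and in 26.6% of all genes. ST6GALNAC5 was chosen for its rise and the others were listed with results known, so nothing particular to these genes is read from this count.

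ST6GAL1 (Entrez 6480), the enzyme that adds terminal sialic acid to galactose on N-glycans, rose 1.61-fold in its brightest probe set. Its log2 values were 9.11, 9.17 and 9.14 in CRB3-expressing cells and 8.38, 8.51 and 8.46 in vector control cells. The spread within each group was small against the gap between them, with a log2 difference of 0.69 (SE 0.064, adjusted p = 0.000410 by limma). The second probe set, which read 6.86, 6.96 and 7.05 against 6.20, 6.57 and 6.45, had a log2 difference of 0.55 (SE 0.099, adjusted p = 0.0180 by limma). That is a 1.46-fold difference, which passed the p threshold and stayed under the fold threshold. The dimmest probe set had means of 4.53 and 4.60 and a log2 difference of -0.078 (SE 0.090, adjusted p = 0.735 by limma). The second and the dimmest probe set had means no higher than the highest of the lost CDKN2 genes (6.96). They are not shown to be above background. Averaged over the 3 probe sets, ST6GAL1 had a log2 difference of 0.39 and was not called.

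ST3GAL5 (Entrez 8869), the GM3 synthase, fell 1.59-fold. Its only probe set read 6.40, 6.10 and 6.41 in CRB3-expressing cells and 6.88, 6.98 and 7.05 in vector control cells. Each CRB3-expressing array lay below each vector control array, and the log2 difference was -0.67 (SE 0.094, adjusted p = 0.00482 by limma). These values lie near the highest of the probe sets of the deleted CDKN2 genes (6.96), so they are not shown to be above background and the size of the fold is uncertain. CRB3-expressing replicate 2 was the lowest of the 6 arrays. Without it the log2 difference was -0.57 (adjusted p = 0.0103 by limma), and the fold threshold was no longer passed. When the variance was pooled in the ordinary way, without the empirical Bayes of limma, the adjusted p was 0.114, the highest of 14 alternatives, which ranged from 0.000816 to 0.114.

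The remaining ST6GALNAC genes were not called. ST6GALNAC2, which sialylates O-glycan cores, was at 6.87, 6.90 and 6.81 in CRB3-expressing cells and 6.64, 6.64 and 6.56 in vector control cells. Its means of 6.86 and 6.62 lay below the highest of the probe sets of the deleted CDKN2 genes (6.96). Its groups did not overlap, and its log2 difference was 0.24 (95% confidence interval 0.10 to 0.38, adjusted p = 0.0771 by limma). ST6GALNAC1, which makes the tumor-associated sialyl-Tn antigen, had means of 4.49 and 4.45 and a log2 difference of 0.032 (95% confidence interval -0.17 to 0.24). ST6GALNAC3, the neighbor of ST6GALNAC5 on chromosome 1, had means of 3.64 and 3.61 and a log2 difference of 0.031 (95% confidence interval -0.16 to 0.22). Both read lower than some probe sets of the deleted CDKN2 genes, and their levels are not shown to be above background. Leaving out single arrays turned the sign of both values, which have no settled direction.

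ST6GALNAC4 and ST6GALNAC6 add sialic acid to already sialylated O-glycans and glycolipids, and lie next to each other on chromosome 9. ST6GALNAC4 was read in 4 probe sets. The brightest read 8.95, 8.89 and 8.88 with CRB3 and 9.03, 8.93 and 9.05 with the vector, with a log2 difference of -0.095 (95% confidence interval -0.24 to 0.048). The others had log2 differences of -0.22, -0.055 and 0.064, and the first of these was the one whose groups did not overlap (adjusted p = 0.129 by limma). ST6GALNAC6 had means of 7.08 and 7.23 and a log2 difference of -0.15 (95% confidence interval -0.31 to 0.0046, adjusted p = 0.323 by limma), with groups that did not overlap.

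ST3GAL1, which caps the core of mucin-type O-glycans, and ST3GAL4, which caps N-glycans and takes part in making selectin ligands, were not called in any probe set. In its brightest probe set ST3GAL1 read 7.77, 7.79 and 7.82 in CRB3-expressing cells and 7.64, 7.73 and 7.66 in vector control cells, with a log2 difference of 0.12 (95% confidence interval -0.019 to 0.25, adjusted p = 0.388 by limma). Its other 2 probe sets leaned the other way, with log2 differences of -0.054 and -0.11 and groups that overlapped. ST3GAL4 read 8.16, 8.22 and 8.27 against 8.06, 8.05 and 8.14, with a log2 difference of 0.13 (95% confidence interval -0.010 to 0.28, adjusted p = 0.346 by limma), and its second probe set had -0.0025. Over the 7 genes that were not called, the 95% confidence intervals of the brightest probe sets reached from -0.31 to 0.38. These limits lay inside the 1.5-fold threshold on both sides. For ST6GALNAC1, ST6GALNAC2 and ST6GALNAC3, whose signal could be background, the intervals bound the array value only. A larger change in the transcripts of these genes stays possible.

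**Figure D2:**
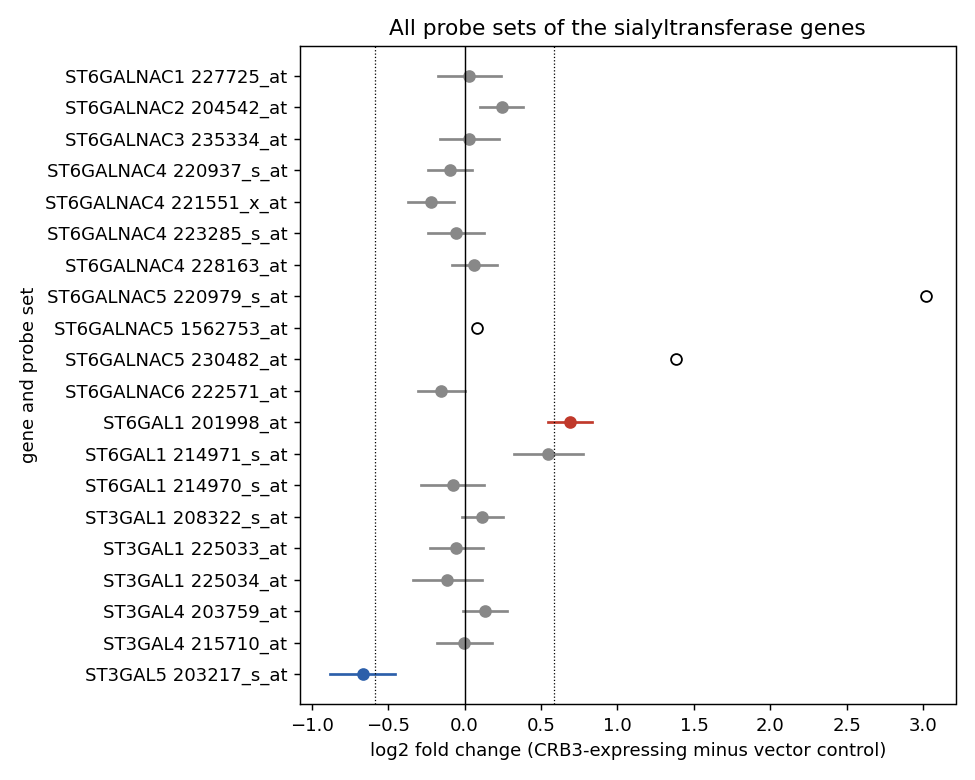
Log2 difference between the groups (x axis, CRB3-expressing minus vector control) of all 20 probe sets of the sialyltransferase genes (y axis); lines are 95% confidence intervals from limma, red marks a call higher, blue a call lower and grey no call, dotted lines are the 1.5-fold threshold, and open circles are ST6GALNAC5, which is drawn without an interval. The probe sets of ST6GALNAC5 lie at 3.02, 1.38 and 0.080, and those of ST6GAL1 at 0.69, 0.55 and -0.078.

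Of the 9 other sialyltransferases with a probe set, 0 were called by limma, and 0 passed the adjusted p threshold alone. At an unadjusted p under 0.05, 1 was higher and 1 lower. Over all genes 1.43% were called higher and 0.465% lower, and 10.4% and 8.39% had an unadjusted p under 0.05. The 9 comprise ST3GAL2, ST3GAL3, ST3GAL6, ST6GAL2 and ST8SIA1 to ST8SIA5, with a median log2 difference of -0.048, against 0.0066 over all genes. ST3GAL2, which sialylates O-glycans and gangliosides, had the smallest p of this list, with a mean of 7.55 with CRB3 and 7.84 with the vector and a log2 difference of -0.29 (95% confidence interval -0.48 to -0.10, adjusted p = 0.111 by limma). Its dimmer probe sets had log2 differences of -0.20, -0.063, -0.013 and 0.26, none of them called. The last of these leaned the other way, with a 95% confidence interval of 0.024 to 0.50. ST8SIA1, the GD3 synthase that acts on the product of ST3GAL5, had means of 3.48 and 3.40. These are not shown to be above background. Nor are the levels of ST3GAL6, ST6GAL2 and ST8SIA2 to ST8SIA5, whose means lay below the highest of the deleted CDKN2 genes (6.96). For such genes the lack of a call does not show that expression was unchanged.

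Beyond the sialyltransferases, 61 measured genes of sialic acid and glycan synthesis were examined in 8 lists, the other sialyltransferases included. Of these, limma called 2 higher and 0 lower, and 59 were not called, where the same rule called 1.43% of all genes higher and 0.465% lower. At an unadjusted p under 0.05, 12 were higher and 4 lower, beside 10.4% and 8.39% of all genes. Their median log2 difference was 0.034. At an adjusted p under 0.05 with no fold threshold, 7 were higher and 1 was lower, beside 3.37% and 1.77% of all genes. With so few calls, nothing particular to these genes is read from the counts.

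In ganglioside core synthesis, UGCG, the glucosylceramide synthase that makes the glycolipid precursor of gangliosides, rose 1.64-fold. Its brightest probe set read 10.70, 10.62 and 10.62 in CRB3-expressing cells and 9.95, 9.99 and 9.86 in vector control cells, with a log2 difference of 0.71 (SE 0.065, adjusted p = 0.000379 by limma). The other 2 UGCG probe sets were higher too, with log2 differences of 0.65 and 0.62, and each was called. B4GALT5, which turns glucosylceramide into lactosylceramide, the substrate of ST3GAL5, had means of 10.59 and 10.01. Its log2 difference of 0.58 (adjusted p = 0.00712 by limma) was a 1.49-fold difference, just under the fold threshold, while its second probe set was called at 0.61. B4GALT6, the other lactosylceramide synthase, leaned the other way, with a mean of 8.27 with CRB3 and 8.55 with the vector and groups that did not overlap. Its log2 difference was -0.28 (95% confidence interval -0.45 to -0.10, adjusted p = 0.104 by limma), and its 3 dimmer probe sets had -0.24, -0.41 and 0.031, none of them called. UGCG, B4GALT5 and B4GALT6 act before ST3GAL5 in this pathway. B4GALNT1, which carries GM3 on to complex gangliosides, had a log2 difference of -0.028 (95% confidence interval -0.28 to 0.23). Its means of 6.28 with CRB3 and 6.31 with the vector are not shown to be above background.

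None of the 7 genes of sialic acid supply was called by limma, and 1 had an unadjusted p under 0.05. NANS, which synthesizes sialic acid, had the smallest p, with a mean of 11.33 with CRB3 and 11.11 with the vector (log2 difference 0.22, adjusted p = 0.0851 by limma). GNE, which starts the pathway, CMAS, which makes the activated donor, and SLC35A1, which carries it into the Golgi, had log2 differences of 0.075, -0.014 and 0.064. None of the 7 genes of sialic acid removal and O-acetylation was called either, although 2 had an unadjusted p under 0.05. SIAE, a sialate esterase, had the smallest p (log2 difference 0.23, adjusted p = 0.164 by limma). None of the 5 measured genes of ganglioside breakdown was called, and 1 had an unadjusted p under 0.05, namely PSAP, which encodes the saposins (log2 difference 0.17, adjusted p = 0.214 by limma). Over all genes, 1.43% were called higher and 0.465% lower. At an unadjusted p under 0.05, 10.4% of all genes were higher and 8.39% lower. Nothing particular to these 3 lists is read from the counts.

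In the lists of the glycan chains that carry sialic acid, B4GALT4, a galactosyltransferase, rose 1.74-fold, with values from 8.65 to 8.88 in CRB3-expressing cells and from 7.79 to 8.12 in vector control cells. Its log2 difference was 0.80 (SE 0.097, adjusted p = 0.00199 by limma), and its second probe set, at 0.38, was under the fold threshold. With an ordinary pooled variance the adjusted p of B4GALT4 was 0.0886, the highest of 14 alternatives, which started at 8.23e-05. FUT8, which adds the core fucose of N-glycans, had a mean of 8.30 with CRB3 and 8.82 with the vector (log2 difference -0.52, adjusted p = 0.00699 by limma), a change under the fold threshold. The same held for GCNT1, the core branching enzyme of O-glycans (log2 difference 0.39, adjusted p = 0.00680 by limma). FUT3, a fucosyltransferase of Lewis antigens, had a log2 difference of 0.49 (adjusted p = 0.0250 by limma) and was not called. Its second probe set had 0.55 (adjusted p = 0.103 by limma). Over the 14 alternatives the adjusted p of FUT3 ranged from 0.00768 by limma to 0.189 with an ordinary pooled variance. Its vector control mean of 6.59 is not shown to be above background. FUT8 was named after its values were seen.

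**Figure D3:**
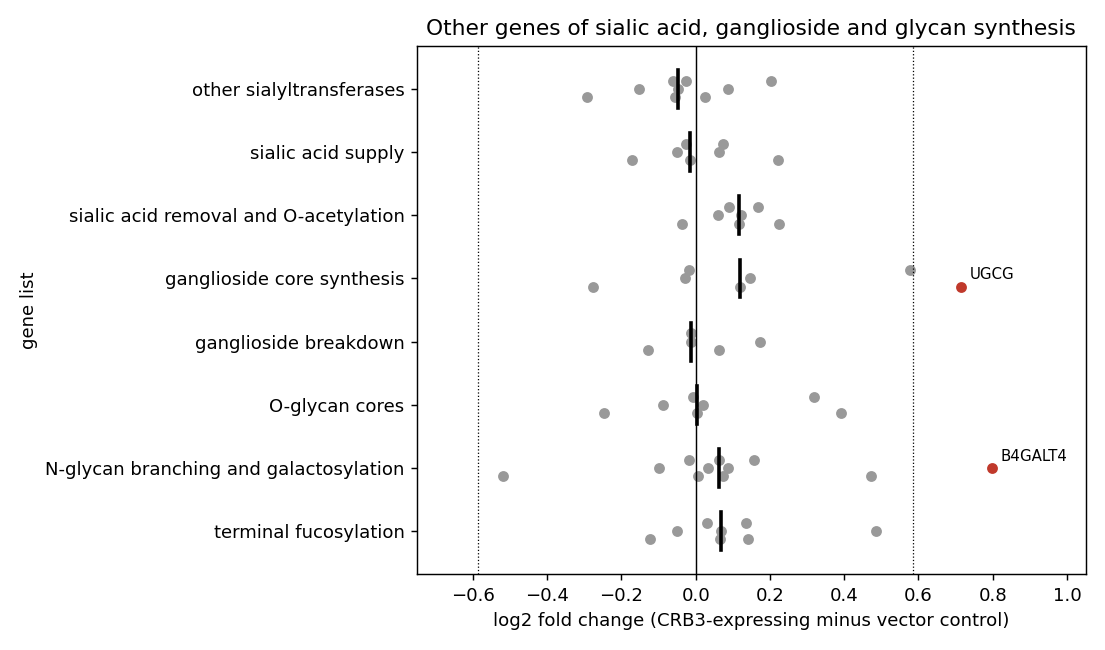
Log2 difference between the groups (x axis, CRB3-expressing minus vector control) of each measured gene of 8 lists (y axis), 1 point per gene in its brightest probe set; red marks a call higher, grey no call, black bars are list medians and dotted lines the 1.5-fold threshold. UGCG and B4GALT4 are the 2 called genes, at 0.71 and 0.80, and B4GALT5 lies at 0.58.

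Over the 6 arrays, the genes whose log2 values followed those of ST6GALNAC5 most closely were HOGA1, NECAP2, MUC1, SCEL and LINC01279, with Pearson's r between 0.998 and 0.999. Their log2 differences were 1.38, 0.27, 1.92, 2.23 and 2.14. An r above 0.99 was found for 107 of 19774 genes, and with 2 groups of arrays such a value mostly reflects a difference between the groups.

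As a check of the cell type, the 5 measured epithelial markers had means over the arrays between 9.97 and 13.60. Of these 5, 4 passed the adjusted p threshold, all higher with CRB3, beside 3.37% of all genes. The other was KRT5, with a log2 difference of -0.040. Of the 4, 2 were called, beside 1.43% of all genes called higher. They were KRT14, a basal keratin, with a log2 difference of 1.83 (adjusted p = 5.93e-06 by limma) and CDH1, the epithelial cadherin, with 1.10 (adjusted p = 2.17e-05 by limma). The 5 leukocyte and endothelial markers lay between 4.16 and 6.58, and limma called 0 of them, with 0 at an unadjusted p under 0.05. Of 5 fibroblast markers, with means between 3.43 and 8.01, DCN was lower in CRB3-expressing cells (6.93 against 7.68, adjusted p = 0.00249 by limma) and the other 4 were not called, COL1A1 among them at 8.02 and 8.01. Both the DCN and the COL1A1 values come from _x_at probe sets, which can bind several transcripts. Another DCN probe set was called lower at -0.81, and the rest ranged from -0.42 to 0.19 and were not called. The other COL1A1 probe sets had means from 3.63 to 6.55, which are not shown to be above background. The part of such differences in the values above was not tested. In these bulk samples, fewer cells that express a gene and less RNA per cell cannot be told apart.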

How the data were processed

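RNA was hybridized to Affymetrix U133 Plus arrays from 3 CRB3-expressing and 3 vector control samples of MCF-10A cells, grouped by their labels. The authors processed the arrays by Robust Multichip Average (RMA), which corrects background, equalizes the arrays and summarizes probes into probe sets, and the deposited log2 values were used as they stand. Array medians lay between 5.84 and 5.88. Precision rests on having 3 arrays a group. No version of RMA is given in the sources used here.

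Differences (CRB3-expressing minus vector control) were fitted with limma 3.58.1 in R 4.3.3 to 54613 probe sets, without 62 control probe sets, and p-values were adjusted by Benjamini-Hochberg over the whole table. Genes were called below an adjusted p of 0.05 where the fold also exceeded 1.5. The fit was tested on simulated data. Gene symbols came from the platform annotation, checked through Entrez identifiers against RefSeq (GRCh38.p14), with 0 changes. A gene is represented by its single-symbol probe set with the highest mean, chosen over all 6 arrays. Probe sets with the suffix _s_at or _x_at can bind several transcripts. Promoter windows of 7 of 10 members were searched. Alternatives were an ordinary pooled variance, a variance trend, array weights, further normalization, filters on dim probe sets, other fold thresholds, other choices of probe set, single arrays left out and a replicate block.

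The members and the gene lists were chosen with earlier results of these data known. The text names every member, up to 4 called genes of each list or else the gene with the smallest p, and the 5 genes most like ST6GALNAC5. Other genes named for their role in a list were picked after their values were seen.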

Additional observations from a re-analysis of the deposited data

How the results depend on the processing

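The log2 difference of ST6GALNAC5 depends on the probe set: it was 3.02 in the brightest and 1.49 as the mean over probe sets. Without _x_at or _s_at probe sets, the brightest left had 0.080. The other one left had 1.38, with groups that did not overlap. ST6GALNAC5 has no probe set left at a mean of at least 6. In its brightest probe set the log2 difference lay between 2.93 and 3.07 when single arrays were left out. ST6GAL1 kept its call at the 1.5-fold threshold in each refit of its brightest probe set, with adjusted p-values from limma or the pooled variance between 9.04e-06 and 0.0204. Among the 9 other members the count called lower (ST3GAL5) was 0 with an ordinary pooled variance, with a fold above 2 and without _x_at or _s_at probe sets, where ST3GAL5 has no probe set left, and 0 to 1 when single arrays were left out. The count called higher was 0 with a fold above 2 and with the mean over probe sets, and 1 to 1 when single arrays were left out. Of the pathway genes, 1 was called higher with an ordinary pooled variance and 1 without _x_at or _s_at probe sets, 0 with a fold above 2, 3 with quantile normalization, any probe set or the mean over probe sets, 2 to 3 when single arrays were left out, and 7 higher and 1 lower with no fold threshold. When single arrays were left out, ST6GALNAC1 ranged from -0.043 to 0.090 and ST6GALNAC3 from -0.046 to 0.086. Without CRB3-expressing replicate 2 they were -0.036 and -0.046, ST6GALNAC1 was -0.043 without vector control replicate 1, and ST6GALNAC3 -0.016 without vector control replicate 3. Arrays with the same replicate number did not deviate together (r of -0.085, 0.064 and 0.029 across probe sets). With the replicate block, 1 other member was called higher and 1 lower, and 2 pathway genes were higher, as without it. Without detection calls, the levels of ST6GALNAC1, ST6GALNAC2, ST6GALNAC3 and ST3GAL5, and of ST6GALNAC5 in vector control cells, are not shown to be above background. The same holds, among others, for the dimmer probe sets of ST6GALNAC5 and ST6GAL1, for B4GALNT1 and ST8SIA1, and for FUT3 in vector control cells.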
